A study of Homo sapiens with 5 samples.

Results

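Interferon response and antigen presentation genes were followed across 5 Affymetrix arrays labelled as LNCaP cells, a human prostate cancer cell line, treated with celastrol or its solvent. The 40 genes were taken from a list given by name, and 39 of them had a probe set of their own among the 12165 genes of the array; STAT2 was not analysed here. Each gene was read from the probe set with the highest mean over the 5 arrays. The genes fall by role into 2 measured transcription factors (IRF7 and IRF9), 20 antiviral effectors, ISG15 with its deconjugating enzyme USP18, 8 genes of class I antigen presentation and 7 of class II antigen presentation. Per the labels, all cells were in RPMI medium with serum; celastrol, a plant triterpenoid, was given at 1.25 µM for 6 h on 2 arrays, and DMSO for 6 h on 3. The labels call the arrays of a group biological replicates but do not say whether they came from separate cultures, so p-values measure the spread between these arrays only. Levels are log2(intensity + 1), as RMA left them, and a level below 5 is called near the floor. Of all genes, 43.0% lay below that mark on all 4 of the celastrol arrays and DMSO replicates 1 and 2.

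Interferons act through receptors, JAK kinases and STAT proteins. Type I interferon assembles a complex that holds STAT2 and IRF9 and binds a DNA element, the interferon-stimulated response element (ISRE), next to genes whose products block viral entry, replication and release. Interferon gamma acts through another DNA element, the gamma-activated site (GAS). Both raise class I antigen presentation, which shows peptides made inside the cell to CD8 T cells on HLA heavy chains paired with B2M. Class II molecules show peptides from endosomes to CD4 T cells; they depend on the coactivator CIITA, are kept on in B cells, dendritic cells and macrophages, and are usually silent in epithelium.

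The promoter sequences printed here show the interferon elements near these genes; they come from RefSeq on GRCh38.p14 and run 5′ to 3′ on the strand of the gene. In the 250 bases before the start, the ISRE letters, searched as GAAA, any 2 bases and GAAA on either strand, were found for 19 of the 30 members with a promoter in the table, against 3.71% of all 27305 genes there. They were found for 13 of 16 effectors, for ISG15, for 5 of 7 class I genes and for 0 of 5 class II genes. The first group of sequences shows 8 members with the match nearest the start, and any other match inside the window, in capitals. In ISG15, BST2, B2M and TAP1 a pair of matches overlaps. MX1 held a match before only 1 of its listed start sites. IFIT1 and IFIT5 are both printed because these neighbours differed in level, as described further on.
ISG15, chr1:1013360-1013429, plus strand: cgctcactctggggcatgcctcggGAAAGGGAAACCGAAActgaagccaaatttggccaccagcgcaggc
IFIT1, chr10:89392490-89392559, plus strand: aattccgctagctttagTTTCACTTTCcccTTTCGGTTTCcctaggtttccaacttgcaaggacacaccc
IFIT5, chr10:89414519-89414567, plus strand: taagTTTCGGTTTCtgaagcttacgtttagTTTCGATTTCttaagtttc
OAS3, chr12:112938432-112938473, plus strand: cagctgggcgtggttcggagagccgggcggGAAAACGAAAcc
ISG20, chr15:88638917-88638986, plus strand: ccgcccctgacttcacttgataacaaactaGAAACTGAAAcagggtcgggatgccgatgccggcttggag
BST2, chr19:17405715-17405784, minus strand: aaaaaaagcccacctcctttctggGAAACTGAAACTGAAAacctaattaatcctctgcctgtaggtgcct
B2M, chr15:44711349-44711418, plus strand: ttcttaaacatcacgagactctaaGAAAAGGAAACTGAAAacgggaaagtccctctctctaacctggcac
TAP1, chr6:32853793-32853862, minus strand: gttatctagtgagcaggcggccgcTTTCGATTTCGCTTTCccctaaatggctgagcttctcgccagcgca

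The Y box, an inverted CCAAT element shared by class I and class II promoters and bound by NF-Y, was searched as CTGATTGG on either strand. The letters were found for 5 of the 30 members (B2M, HLA-B, HLA-C, HLA-F and HLA-DMA) and for 4.59% of all genes. They are in capitals in the sequences of HLA-B and HLA-DMA, 1 gene of each class. On the strand of the gene the match read CTGATTGG, the inverted form, in B2M and HLA-DMA. In HLA-B, HLA-C and HLA-F it read CCAATCAG, with CCAAT not inverted. Whether the matches of HLA-B, HLA-C and HLA-F are Y boxes was not tested. The GAS letters TTCNNNGAA, which read alike on both strands, were found for 8 of the 30 members, against 8.09% of all genes, and overlapped an ISRE match in BST2, IFI27 and MX1. These are matches of letters in reference sequence, not measured binding.
HLA-B, chr6:31357198-31357265, minus strand: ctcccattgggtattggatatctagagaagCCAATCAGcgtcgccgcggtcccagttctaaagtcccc
HLA-DMA, chr6:32953142-32953209, minus strand: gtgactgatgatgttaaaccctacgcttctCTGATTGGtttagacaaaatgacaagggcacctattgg

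The array labelled DMSO replicate 3 stood apart from the other 4, as whole-array correlations showed (Pearson r of 0.843 to 0.844 with them over probe sets, against 0.994 to 0.998 among the other 4). Luminal prostate markers were low there: 9 of the 10 measured were at least 2-fold below DMSO replicates 1 and 2, and the summed intensity of the 10 was 259.3 there against 13476 to 14605 elsewhere. All 6 measured pan-leukocyte markers and 8 of 9 B cell markers were at least 2-fold higher on it. Total intensity ran from 4939397 on this array to 5348496 on celastrol replicate 1, and the number of arrays limits the precision. The array thus goes against its label in these markers and was set apart from the celastrol comparison. Results with it are given beside those without it. In bulk RNA such as this, fewer cells of a type and less RNA per cell cannot be told apart.

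On that array 35 of the 39 measured members were at least 2-fold higher than the mean of DMSO replicates 1 and 2, 31 at least 4-fold and 13 at least 16-fold, and 0 were 2-fold lower. Of all genes, 8.65%, 3.82% and 1.16% were higher by these factors, and 12.0%, 4.32% and 0.929% lower by them. The members' median difference was 3.24 on the log2 scale, against 0 over all genes. All 39 members were higher on it than on each of the other 4 arrays, as were 36.8% of all genes. With 1 array on one side there is no replicate check and no test of these differences, and folds from levels near the floor understate a change. Of the 39 members, 18 were near the floor on all 4 other arrays, and 15 of those 18 were at least 2-fold higher on DMSO replicate 3. Of all 12165 genes, 5233 were near the floor on those 4 arrays. At least 2-fold higher on DMSO replicate 3 were 488 of these 5233, or 4.01% of all genes. Several probe sets were present for 18 members, and for 10 of these 18 all were at least 2-fold higher on DMSO replicate 3. Of the 76 probe sets of all members 61 were, or 50 of 62 without those of HLA-C, whose names are uncertain.

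**Figure D1:**
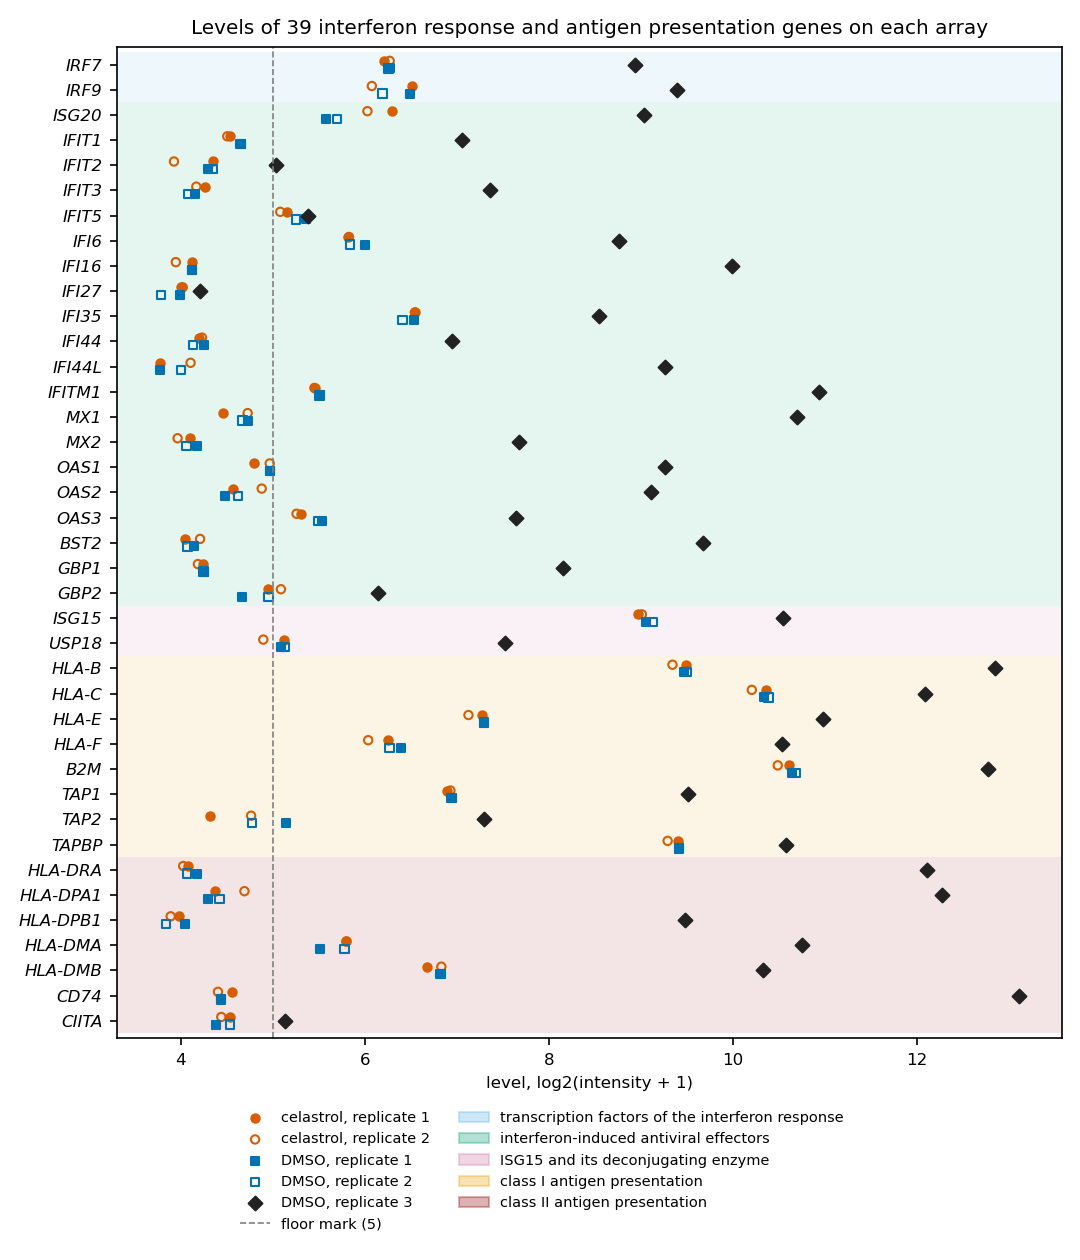
Level of each of the 39 measured genes on every array, as log2(intensity + 1) on the horizontal axis, with 1 symbol per array and shading by role. The 4 celastrol and DMSO replicate 1 and 2 symbols lie close together in each row, and DMSO replicate 3 (diamonds) lies to their right in all 39 rows, by least for IFIT5 and by most for CD74.

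The 2 measured transcription factors were well above the floor on all arrays. IRF9, a DNA-binding partner of STAT2, stood at 6.51 and 6.08 with celastrol, 6.49 and 6.19 on DMSO replicates 1 and 2, and 9.39 on DMSO replicate 3. IRF7, which drives interferon alpha genes, stood at 6.21, 6.27, 6.27, 6.26 and 8.93 in the same order. For both, the celastrol and DMSO values overlapped on the 4 arrays, and DMSO replicate 3 was 8.27-fold and 6.36-fold above the other DMSO arrays.

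Among the 20 antiviral effectors, 17 were at least 2-fold higher on DMSO replicate 3, and 13 of the 20 were near the floor on all 4 other arrays. MX1, a dynamin-like GTPase that traps viral nucleoproteins, stood at 4.46 and 4.73 with celastrol, 4.73 and 4.67 with DMSO, and 10.70 on DMSO replicate 3. IFI16, a sensor of foreign DNA, stood at 4.12, 3.94, 4.12, 4.12 and 10.00 in that order of arrays, and BST2, which tethers budding virus to the cell surface, at 4.04, 4.21, 4.14, 4.07 and 9.68. These 3 genes were near the floor on the 4 arrays, and 64.1-fold, 58.7-fold and 47.6-fold higher on DMSO replicate 3. IFITM1, a membrane protein that hinders viral entry, was just above the floor mark, at 5.46, 5.45, 5.51, 5.51 and 10.93, a 42.9-fold difference. Transcripts of its close relatives may cross-hybridise to its probes.

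The OAS enzymes sense double-stranded RNA and activate RNase L. OAS1 stood at 4.79 and 4.97 with celastrol, 4.97 and 4.97 with DMSO, and 9.26 on DMSO replicate 3. OAS2 was at 4.56, 4.88, 4.47, 4.62 and 9.11, and OAS3 at 5.30, 5.26, 5.53, 5.50 and 7.64. On the 4 arrays OAS1 and OAS2 were near the floor with overlapping groups, while both OAS3 values with celastrol lay below both with DMSO. OAS1, OAS3 and OAS2 are neighbours on chromosome 12, and their differences on DMSO replicate 3 were 4.30, 2.13 and 4.56. The second probe sets of OAS1 and OAS2 differed by 3.19 and 0.45.

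The IFIT proteins bind foreign RNA, and their genes lie together on chromosome 10. IFIT1 stood at 4.53 and 4.50 with celastrol, 4.65 and 4.65 with DMSO and 7.06 on DMSO replicate 3, and IFIT3 at 4.26, 4.17, 4.16, 4.07 and 7.36. IFIT5, the neighbour of IFIT1, stood at 5.16, 5.08, 5.36, 5.25 and 5.38, so that DMSO replicate 3 was 0.07 above the mean of the other DMSO arrays, against 2.41 for IFIT1. The second probe set of IFIT5 differed by 0.47. IFIT2, next to IFIT3, was at 5.04 on DMSO replicate 3, a difference of 0.72 from levels near the floor. The promoters of IFIT1 and IFIT5 printed above each hold a pair of ISRE matches.

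Other effectors also differed unequally. The neighbours IFI44L and IFI44 were 5.38 and 2.76 higher on DMSO replicate 3, MX2, next to MX1, 3.56 higher, and the guanylate-binding GTPases GBP1 and GBP2 3.91 and 1.34 higher. By their other probe sets, IFI44 and GBP1 were 0.90 and 1.47 higher, so these inequalities depend in part on the probe set. IFI6 was 2.85 higher and IFI35 2.07 higher. IFI27, an interferon-induced mitochondrial protein whose promoter also holds ISRE letters, was near the floor on all 5 arrays, at 4.01 and 4.02 with celastrol and 3.99, 3.78 and 4.21 with DMSO. ISG20, an exonuclease that degrades viral RNA, was above the floor everywhere and 3.39 higher on DMSO replicate 3. Its celastrol values are given with that comparison.

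ISG15, a ubiquitin-like protein joined to other proteins in the interferon response, was high on every array, at 8.97 and 9.01 with celastrol, 9.06 and 9.13 with DMSO and 10.55 on DMSO replicate 3. That is a 2.74-fold difference. USP18, which removes ISG15 and damps the type I receptor, stood at 5.12, 4.90, 5.09, 5.13 and 7.53, a 5.34-fold difference. On the 4 arrays, both ISG15 values with celastrol lay just below both with DMSO, and those of USP18 overlapped.

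Class I antigen presentation genes were measured above the floor in LNCaP cells, 7 of 8 of them on all 4 arrays, and all 8 were at least 2-fold higher on DMSO replicate 3. B2M, the light chain, stood at 10.61 and 10.49 with celastrol, 10.64 and 10.68 with DMSO and 12.77 on DMSO replicate 3. HLA-B was at 9.50, 9.34, 9.47, 9.50 and 12.85, and HLA-E, which presents leader peptides to natural killer cells, at 7.28, 7.13, 7.29, 7.29 and 10.98. DMSO replicate 3 was thus 4.32-fold, 10.4-fold and 12.9-fold above the other DMSO arrays. HLA-F, a nonclassical heavy chain, was 18.5-fold higher there. TAP1 and TAP2, which form the transporter that loads peptides into the endoplasmic reticulum, were 5.95-fold and 5.03-fold higher, and TAPBP, which bridges it to the heavy chain, 2.25-fold. TAPBP, at 1.17, was the least different of the 8.

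Heavy chain genes are closely alike in sequence, so values of their probe sets are uncertain. All 3 probe sets of HLA-B (differences of 3.37 to 3.56) and all 3 of HLA-E (2.88 to 3.69) were higher on DMSO replicate 3. A further probe set each of HLA-F, TAP2 and TAPBP, near the floor on the other 4 arrays, differed by 0.25, -0.09 and 0.07. HLA-C had 14 probe sets. The 4 that were above the floor on any of the other arrays differed by 1.73 to 3.50, another 6 were near the floor on those arrays and 4.27 to 8.02 higher on DMSO replicate 3, and the last 4 differed by 0 to 1.38. The probe set used gave 12.09 on DMSO replicate 3 against 10.36 on the mean of DMSO replicates 1 and 2, and the annotation's single name for such unlike probe sets could not be checked here. The same annotation names 1 further probe set for both HLA-C and immunoglobulin kappa genes, which B cells express, so whether those 6 measure HLA-C is uncertain.

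Of the 7 class II genes 5 were at least 16-fold higher on DMSO replicate 3. CD74, the invariant chain that guides class II molecules to endosomes, stood at 4.55 and 4.40 with celastrol, 4.44 and 4.44 with DMSO, and 13.11 on DMSO replicate 3. Its difference was 8.67, or 409-fold, measured from a level near the floor. HLA-DRA was at 4.08, 4.03, 4.17, 4.06 and 12.11, and HLA-DPA1 at 4.37, 4.69, 4.29, 4.42 and 12.28. HLA-DPB1, the partner chain of HLA-DPA1, was at 3.98, 3.89, 4.05, 3.83 and 9.48. These 4 genes were near the floor on each of the 4 other arrays, with celastrol and DMSO values overlapping, and 46.5-fold to 409-fold higher on DMSO replicate 3.

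HLA-DMA and HLA-DMB, which form the editor that loads class II peptides, were the class II genes among the members above the floor in LNCaP cells. HLA-DMA stood at 5.80, 5.80, 5.52, 5.78 and 10.75, and HLA-DMB at 6.68, 6.83, 6.83, 6.82 and 10.33. Both were above the floor on all arrays and 5.10 and 3.50 higher on DMSO replicate 3. CIITA, on which class II transcription depends, stood at 4.53, 4.44, 4.39, 4.53 and 5.13, a difference of 0.67. Its 3 probe sets differed by 0.51 to 0.67, and all 3 were near the floor on the 4 arrays.

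**Figure D2:**
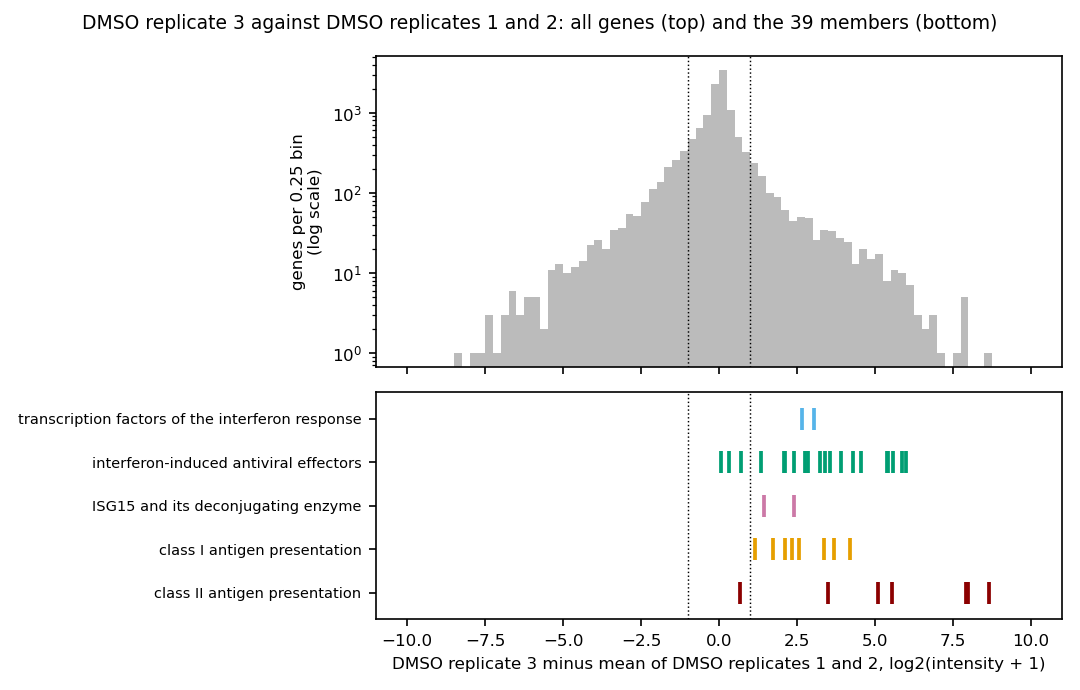
Difference of DMSO replicate 3 from the mean of DMSO replicates 1 and 2 (horizontal axis, log2 scale), as a histogram of all 12165 genes with a log count axis above and as 1 tick per member and role below; dotted lines mark 2-fold. Of the 39 ticks 35 lie right of the upper line, and the CD74 tick at 8.67 lies farthest right.

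Other genes of the same pathways were listed by name, with earlier results of these data known. All 15 measured interferon genes were near the floor on the 4 arrays, 14 of the 15 also on DMSO replicate 3, and 0 were 2-fold higher there. Of 13 receptors, kinases and feedback genes 6 were at least 2-fold higher. JAK1, the kinase shared by all interferon receptors, whose lack in LNCaP cells has been described, stood at 5.17 and 5.17 with celastrol, 5.30 and 5.30 with DMSO and 9.05 on DMSO replicate 3. TYK2, the other kinase of the type I receptor, was 1.61 higher there, and the receptor chains IFNGR1 and IFNAR2 2.14 and 0.46. The kinase JAK2 and the receptor chain IFNAR1, the latter near the floor on DMSO replicate 3, differed by -0.36 and -0.28. Of these 13 genes, 0 were at least 2-fold lower. Of 13 nucleic acid sensors and adaptors 4 were at least 2-fold higher, among them the DNA sensor AIM2 (3.71), the RNA sensor TLR7 (2.97) and the RNA sensor IFIH1 (2.35). All 5 measured genes on the list of IRF genes outside the members were higher, by 1.59 to 6.17, IRF4, a lymphoid factor, most. IRF3, counted with the sensors and named after its value was seen, was 0.36 higher. Of 39 other interferon-induced genes 22 were at least 2-fold higher and 1 lower, LGALS3BP (-1.41, named here after its value was seen). The immunoproteasome subunits PSMB8 and PSMB9, which shape class I peptides, were 5.59 and 5.82 higher. Of 24 other antigen processing genes 9 were higher, among them HLA-DRB1 at 6.98, the lysosomal thiol reductase IFI30 at 5.63 and HLA-DQA1 at 4.85, and 1 lower, the protease CTSL at -2.54, likewise named after its value was seen. RFX5, which binds class II promoters, was 0.46 higher.

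Of the markers of other cells, mainly pan-leukocyte and B cell markers were also at least 2-fold higher on DMSO replicate 3. Of the 6 measured pan-leukocyte markers 5 were near the floor on the 4 arrays, the exception being LCP1 at 9.24 to 9.41. Together the 6 summed to 709.4 to 788.2 on those arrays and 19552 on DMSO replicate 3. B cell markers summed to 166.0 to 169.6 on the 4 arrays and 6671 on DMSO replicate 3. MS4A1, the surface antigen CD20, was 6.40 higher there and CD79A, of the B cell receptor, 4.38 higher; PAX5 was the 1 of 9 B cell markers under 2-fold. Of 12 T and natural killer cell markers 2 were higher, LCK and NKG7, and CD3E stood at 4.25 on DMSO replicate 3. All 9 myeloid markers were under 2-fold, with CD14 at 4.12, as were the 7 stromal and endothelial markers. No marker was also a member. The part of cell type in the members' differences was not tested, and with 1 array it cannot be told apart from any other property of that array.

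**Figure D3:**
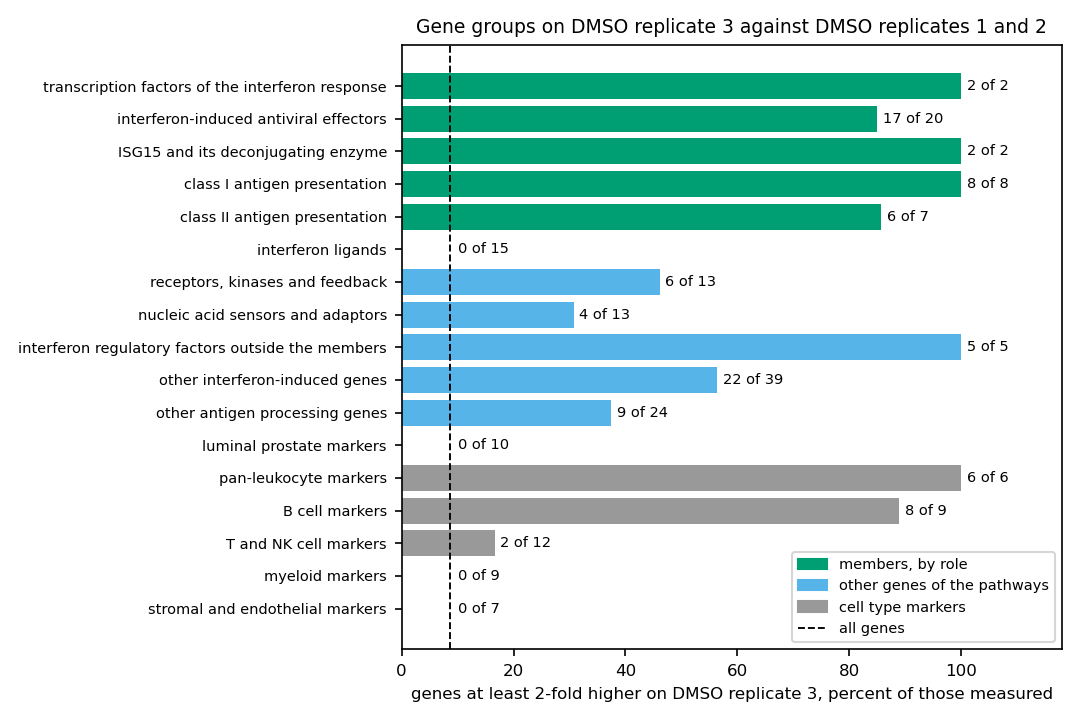
Share of the measured genes of each group (horizontal axis, percent) that were at least 2-fold higher on DMSO replicate 3 than on the mean of DMSO replicates 1 and 2, with the counts at the bars' ends and the share over all genes as a dashed line. The 5 member groups lie between 17 of 20 and all, the interferon genes at 0 of 15, and pan-leukocyte and B cell markers at 6 of 6 and 8 of 9.

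The design's own question is what celastrol did to these genes in LNCaP cells after 6 h. On the 4 arrays with luminal markers, 0 of 39 members passed the limma threshold (adjusted p under 0.05 over all probe sets), where 0.0164% of all genes did. With the 40% dimmest probe sets left out, which calls 1.06% of genes, 0 of the 36 members kept passed; some of these 36 were kept only through their level on DMSO replicate 3. The filter taken over the 4 arrays kept 25 members and again called 0, against 1.03% of genes. The smallest adjusted p of a member was 0.151 by limma without a filter. Before adjustment, limma's p was under 0.05 for 4 members, against 15.0% of all genes: ISG20 on the higher side, where 6.28% of genes were, and OAS3, IFIT1 and IFIT5 on the lower, where 8.73% were. With 2 arrays a group, missing the threshold does not show that a gene did not differ.

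Changes were small, from -0.42 for TAP2 to 0.52 for ISG20, with standard errors of 0.02 to 0.24. The members' median was -0.06, against 0 over all genes, with 26 changes below 0 and 13 above, where 49.9% of all genes were below 0. Without celastrol replicate 2 the members' median was -0.0073. At least 0.5 in either direction was reached by 1 member, ISG20, and by 2.43% of all genes. Celastrol arrays lay above both DMSO arrays for 5 members and below both for 14, against 15.1% and 19.4% of all genes, or 34.4% without overlap in either direction. RMA gave identical values on both arrays of a group for 10 members on these 4 arrays, where the spread within that group is 0.

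**Figure D4:**
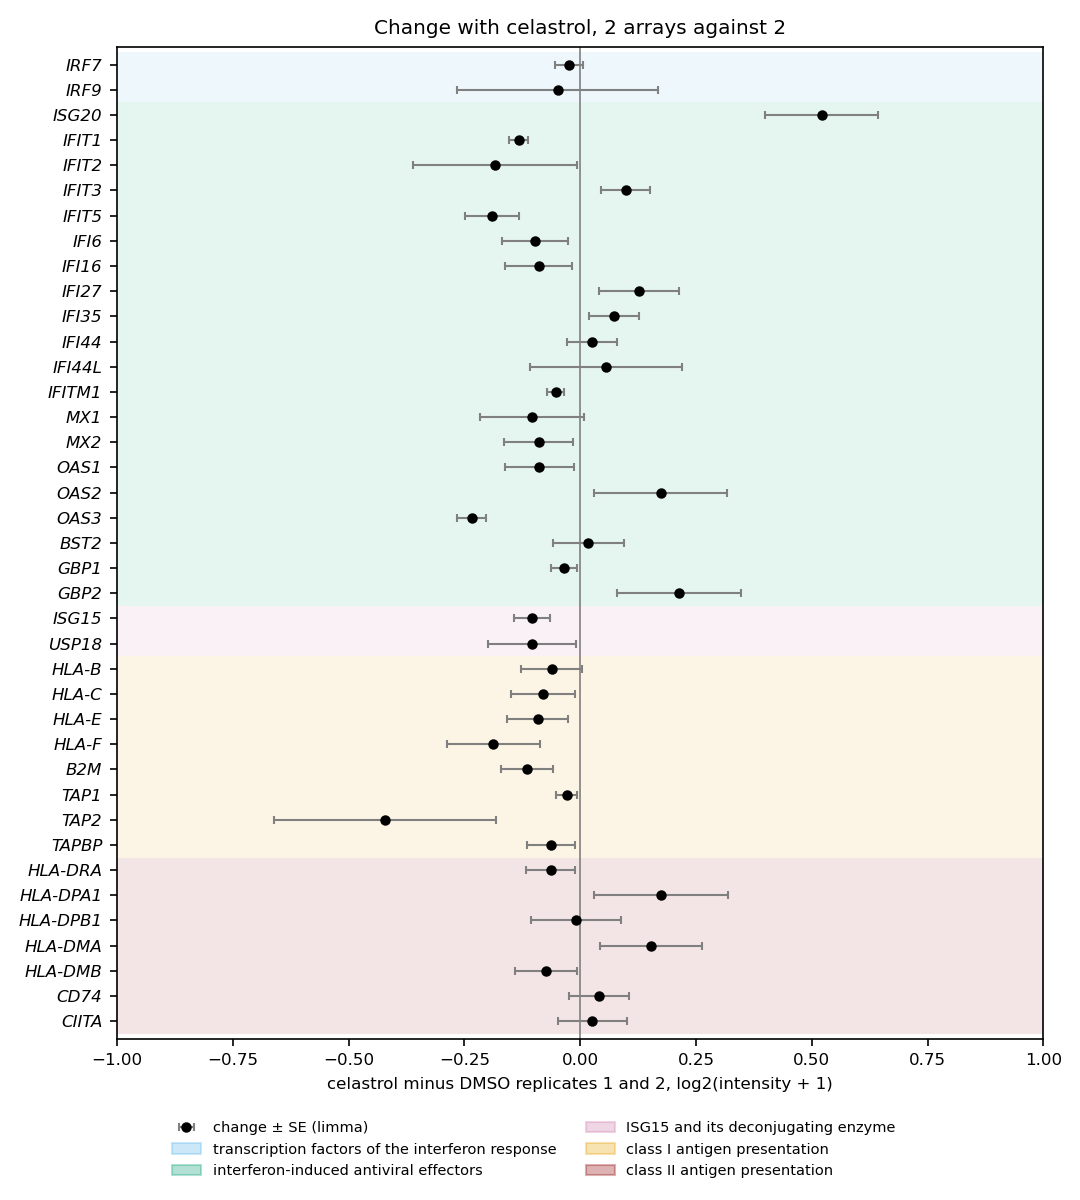
Change of each measured gene with celastrol (horizontal axis, log2 scale; points are limma estimates from 2 celastrol and 2 DMSO arrays, bars are standard errors), shaded by role. ISG20 at 0.52 and TAP2 at -0.42 lie farthest from 0, and 0 of 39 passed the limma threshold after adjustment.

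ISG20 had the widest change on the higher side. It stood at 6.30 and 6.03 with celastrol against 5.58 and 5.70 with DMSO, so the groups did not overlap (0.52, SE 0.12, limma adjusted p = 0.274). Its second probe set gave 6.16 and 6.14 against 5.54 and 5.50 (0.63, SE 0.03, limma adjusted p = 0.0658). With 1 array left out, or under another scale, the change of the first probe set ran from 0.39 to 0.66. IFI27, IFIT3, IFI35 and HLA-DMA also had both celastrol arrays above both DMSO arrays, with changes of 0.13, 0.10, 0.07 and 0.15, the first 2 of them near the floor. With 1 DMSO array left out, these ran from 0.03 to 0.23 for IFI27, 0.06 to 0.14 for IFIT3, 0.01 to 0.14 for IFI35 and 0.02 to 0.28 for HLA-DMA. The higher value was without DMSO replicate 2 for HLA-DMA and without DMSO replicate 1 for the other genes.

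OAS3 had the smallest p of the members. Its change was -0.23 (SE 0.03, limma adjusted p = 0.151), and it ran from -0.26 to -0.17 over the alternatives. IFIT1 had -0.13 (SE 0.02, limma adjusted p = 0.179), near the floor, with identical values on both DMSO arrays and a range of -0.14 to -0.08 over the alternatives, and IFIT5 -0.19 (SE 0.06, limma adjusted p = 0.372). OAS1 and OAS2, beside OAS3 on the chromosome, had changes of -0.09 and 0.17 with overlapping groups, and IFIT3 had 0.10. In the probe sets used, members of these families thus had changes on both sides of 0. The other probe sets of OAS1, OAS2 and IFIT5, near the floor on the 4 arrays, gave 0.08, 0.0001 and -0.06.

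In the probe sets used, all 8 class I genes had changes below 0, with a median of -0.09. For 6 of them both celastrol arrays lay below both DMSO arrays. Of all genes, 49.9% were below 0 and 19.4% had both arrays below. B2M had -0.11 (SE 0.06), HLA-F -0.19 (SE 0.10), HLA-E -0.09, HLA-C -0.08, HLA-B -0.06, TAPBP -0.06 and TAP1 -0.03. Over all probe sets of a gene, changes ran from -0.06 to 0.01 for HLA-B and -0.09 to 0.19 for HLA-C, whose names are uncertain. They ran from -0.19 to -0.02 for HLA-F, -0.09 to -0.08 for HLA-E and -0.10 to -0.06 for TAPBP, and both of B2M were -0.11. None of the 8 passed the limma threshold (smallest adjusted p = 0.595). Quantile normalization moved TAP1 to 0.01. Without celastrol replicate 2 the class I median was -0.03, with HLA-B at 0.01, HLA-C at -0.0018, TAPBP at -0.0043, HLA-E at -0.02, B2M at -0.06 and HLA-F at -0.08, and without celastrol replicate 1 it was -0.16. Celastrol replicate 2 was the lowest of the 4 arrays for HLA-B, HLA-C, HLA-E, HLA-F, B2M and TAPBP. TAP2 stood at 4.31 and 4.76 with celastrol and 5.14 and 4.78 with DMSO, a change of -0.42 (SE 0.24) at levels around the floor mark. With 1 array left out it ran from -0.20 without celastrol replicate 1 to -0.65 without celastrol replicate 2. Its other probe sets, both near the floor, gave 0.03 and -0.12.

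Class II genes had changes from -0.07 for HLA-DMB to 0.17 for HLA-DPA1, with a median of 0.03, 4 above 0 and 3 below. CD74 had 0.04 (SE 0.06) and CIITA 0.03 (SE 0.08), both near the floor. IRF7 and IRF9 had -0.02 (SE 0.03) and -0.05 (SE 0.22), ISG15 -0.10 (SE 0.04) and USP18 -0.10 (SE 0.09).

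Of 109 measured genes on the other pathway lists 0 passed the limma threshold in either direction on the 4 arrays, and 20 had an unadjusted p under 0.05, 5 on the higher side, where 15.0% of all genes had such a p and 6.28% were on the higher side. RFX5 had the smallest adjusted p, with 8.43 on both celastrol arrays and 8.80 on both DMSO arrays (-0.37, SE 0.02, limma adjusted p = 0.0743). JAK2, a kinase of the interferon gamma receptor, stood at 6.61 and 6.39 against 7.02 and 6.92 (-0.47, SE 0.10, limma adjusted p = 0.249), and JAK1 had -0.13 (SE 0.02, limma adjusted p = 0.164).

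On all 5 arrays, grouped as labelled, the members' values differed from those of the 4-array fit. The median change was -1.06, and every change but that of IFI27 (0.02) was below 0, down to -2.85 for CD74, with standard errors up to 3.27. The limma threshold was passed by 0 members and 0.0% of all genes, and 1 member, IFIT5, had an unadjusted limma p under 0.05, against 3.24% of all genes. IFIT5 was also the member for which DMSO replicate 3 lay nearest the other DMSO arrays, with a change of -0.21 (SE 0.06, limma adjusted p = 0.876). The 2 fits share 4 arrays.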

How the data were processed

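Trizol RNA was hybridised as biotinylated cRNA, per the labels' protocols. The values deposited are linear intensity, 1 per array for every probe set; the authors used RMA, per the submitters' processing notes, and its version is not given in the sources used here. Titles set the groups, because the DMSO samples' description mentions celastrol. Of 22215 probe sets, 19724 carry the name of 1 gene, 568 of several, and 1923 have no name here. Levels were computed as log2(intensity + 1) with no further normalization. Celastrol was tested with limma 3.58.1 in R 4.3.3 (lmFit and eBayes, two-sided) on 2 celastrol arrays and DMSO replicates 1 and 2. P-values were adjusted by Benjamini-Hochberg across every probe set, and 0.05 was the threshold. On simulated data, the fit's mean estimates of known changes were checked, and its rate of false calls was not. DMSO replicate 3 was compared by difference alone. Alternatives were filters, trend and robust variance, quantile normalization, a pseudocount of 16, a replicate block and leaving out each array. Any member could be named; of each pathway list, genes past the threshold, the 3 with the largest difference on DMSO replicate 3, and 12 listed genes such as JAK1; and a few markers a list. The members and lists were chosen with earlier results of these data known.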

Additional observations from a re-analysis of the deposited data

How the results depend on the processing

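The count of genes past the threshold with celastrol depended on the setting: 2 by the fit used, 86 and 83 with the dimmest 40% over 5 or 4 arrays left out, 1 with trend and robust variance, 124 after quantile normalization, 28 with log2(intensity + 16), and 0 whichever of the 4 arrays was left out. Leaving out an array leaves 1 residual degree of freedom, and the lone array of a group is assumed to vary like the other group; for the other settings the cause was not tested. With the replicate number as a block the count was 0. The block and the pairing rest on the number alone: over probe sets, same-numbered arrays deviated from their group means with a correlation of -0.0197, over only 2 pairs. The count of members past the threshold was 0 under each of these settings and, on all 5 arrays, with the filter, with the block and without each array. The members' median change ran from -0.0632 to -0.0073, the latter without celastrol replicate 2. Of 39 members, 24 kept the sign of their change under every alternative run, 14 took the other sign under at least 1, and OAS1 went to 0 without celastrol replicate 1. The count at least 2-fold higher on DMSO replicate 3 was 34 or 35, and that near the floor on the 4 arrays 18, or 25 with a mark of 6 and 20 with the mean of all probe sets.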
